A study of Mus musculus with 9 samples.

Results

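The proteasome is the barrel-shaped protease that breaks down proteins tagged with ubiquitin, and 50 of the 24421 gene symbols in the deposited expression table carry a proteasome name (symbols beginning with Psma to Psmg and a number). The rule that chose them uses the name alone and no measured value. Of the 50, 31 encode the standard subunits of the complex, 5 are the immunoproteasome subunits and activators that interferon gamma induces (Psmb8, Psmb9, Psmb10, Psme1 and Psme2), and the rest encode assembly factors, other activators, an inhibitor, tissue-restricted subunits, a near copy of Psme2, and Psmc3ip, a recombination factor that shares the prefix but is no part of the proteasome. Across 3 populations of sorted mouse colon epithelial cells, the immunoproteasome genes were lowest in the goblet-enriched library at every replicate number. The core assembly chaperone genes Psmg1 to Psmg4 were highest in the Lgr5-enriched population. The standard subunits were lower outside that population on the TPM scale, by median log2 fold changes of -0.39 (goblet) and -0.45 (enterocyte). For all genes tested these medians were -0.26 and -0.35. Without Lgr5-enriched replicate 1 the standard subunits fell no further at the median than all genes tested, whose medians were then -0.29 and -0.38. The direction of the standard subunits in enterocyte-enriched cells also depended on the scaling.

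All 9 libraries came from the colon of adult C57BL/6J mice that the labels give as female, untreated and with no transgene named. All cells carried Epcam. Those with Cd44 were divided by Kit, into Lgr5-enriched cells (no Kit) and goblet-enriched cells (Kit present), and cells with no Cd44 and high Cd66a formed the enterocyte-enriched population. Each population has 3 libraries, numbered 1 to 3. The series text speaks of 3 mice, 1 per replicate of a population, but no label ties a library to a mouse. Cells with Cd3, Cd16/Cd32, Cd31 or Cd45 had been sorted away. Values are transcript abundances (TPM), which scale each transcript by its length and each library to the same total, so levels can be compared between genes. Depth recovered from the values was 11.2 to 26.8 M reads per library, and the largest member count in 1 library was 7377 reads (Psmd2). Lgr5-enriched replicate 1 stood apart: it was the deepest, its ribosomal precursor Rn45s read 49046 TPM against 2356 to 6009 in the other 8, and it was the highest of the 9 libraries for 39 of 48 members (81.2%) and for 16.5% of all genes tested. Counts in comparisons with Lgr5-enriched cells are therefore also given without it.

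Summed markers were highest in the libraries of their own gate. The 6 genes of the Lgr5 gate summed to 717 to 891 TPM in the Lgr5-enriched libraries, 347 to 493 in goblet-enriched and 75.3 to 152 in enterocyte-enriched. Enterocyte markers (8 genes) summed to 5260 to 8951 TPM in the enterocyte-enriched libraries and to at most 1031 elsewhere, but 9 goblet markers reached 14529 to 22782 TPM there, against 45634 to 62390 in goblet-enriched and 1502 to 1666 in Lgr5-enriched libraries. Goblet markers were thus present in the enterocyte gate, and single markers differed. Muc2, Spink4, Agr2, Atoh1 and Spdef were highest in goblet-enriched libraries, and Clca1 and Fcgbp overlapped between the 2 populations. Zg16 was higher in enterocyte-enriched (3679 to 7864 TPM) than in goblet-enriched libraries (120 to 565). Tff3 was too (1414 to 2688 against 1018 to 1172). The library labelled enterocyte-enriched replicate 1 goes against its label for sex: Xist was 0.128 TPM there and 110 to 204 TPM in the other 8, and 4 Y-linked genes summed to 139 TPM there and to at most 0.325 in the other 8, so it differs in this from the other libraries numbered 1. In sorted bulk samples, fewer cells of a type and less RNA per cell cannot be told apart.

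Proteasomes consist of a 20S core, a stack of alpha and beta rings in which 3 beta subunits cut the substrate, and a 19S regulatory particle that recognises ubiquitin, unfolds the substrate with a ring of ATPases and feeds it into the core. In cells exposed to interferon gamma, Psmb8, Psmb9 and Psmb10 take the places of Psmb5, Psmb6 and Psmb7, which alters the peptides released for presentation on MHC class I. When proteasomes fail, the transcription factor Nfe2l1 (NRF1) escapes degradation and raises the genes of standard subunits through antioxidant response elements in their promoters. The gut epithelium turns over rapidly, and interferon from mucosal lymphocytes is a known inducer of antigen presentation in it.

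Upstream sequence was examined because both arms of this regulation act through promoters. Of the 50 members, 42 had a RefSeq start site in the promoter table (build GRCm38.p6), and the 250 bases before each start were searched on both strands. The antioxidant response element core, TGACNNNGC, lay before 5 of the 42 (Psmb5, Psmb6, Psmc6, Psmd12 and Psmd9), and 10.2% of all 32851 promoters hold it. Psmb5 and Psmb6, a pair of standard catalytic genes, are shown with that match in capitals. The Psmb5 stretch is chr14:54618023-54618245 on the minus strand, 223 bases that end 28 bases before the start site, and the Psmb6 stretch is chr11:70525107-70525356 on the plus strand, 250 bases.
Psmb5: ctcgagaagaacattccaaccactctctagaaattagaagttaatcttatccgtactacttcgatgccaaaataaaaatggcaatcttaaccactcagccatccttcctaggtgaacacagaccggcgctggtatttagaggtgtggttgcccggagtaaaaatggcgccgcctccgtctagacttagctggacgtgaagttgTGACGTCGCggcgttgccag
Psmb6: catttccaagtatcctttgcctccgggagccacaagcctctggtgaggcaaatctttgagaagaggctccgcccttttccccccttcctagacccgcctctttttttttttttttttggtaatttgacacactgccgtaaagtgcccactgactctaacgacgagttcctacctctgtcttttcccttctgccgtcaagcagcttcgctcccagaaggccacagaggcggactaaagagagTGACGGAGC

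For the interferon-inducible genes the searched motifs were the gamma-activated site, TTCNNNGAA, and the interferon-stimulated response element, GAAA, any 2 bases, GAAA. The gamma-activated site lay before Psmb8, 97 to 89 bases upstream, and before Psmg1, 243 to 235 bases upstream, which is 2 of 42 members against 7.02% of all promoters. The response element lay before 3 of the 42 members (Psmb3, Psmd4 and Psmd9) and before 0 of the 5 immunoproteasome genes, against 2.98% of all promoters. The CCAAT box, CCAAT, lay before 15 of the 42 against 33.8% of all promoters. A match is a run of letters and not a bound site. Psmb9 and Tap1, a peptide transporter gene, start 226 bases apart on opposite strands of chromosome 17, so they share their upstream sequence. For 2 of the inducible genes 30 bases each are shown, with the match in capitals: around the gamma-activated site of Psmb8 (chr17:34198087-34198116, plus strand) and just before the Psmb9 start, where a CCAAT box reads ATTGG on the gene's strand (chr17:34187331-34187360, minus strand). All 30 bases of both lie upstream of the RefSeq start but inside a GENCODE exon of a longer transcript, so that annotation counts them as transcribed. Psmb10, which held none of the motifs, is shown from 250 to 53 bases upstream (chr8:105938445-105938642, minus strand), and Psmg1, an assembly chaperone gene, over 250 bases (chr16:95990961-95991210, minus strand).
Psmb8: gtcctccgctgTTCCCAGAAgatgcccccc
Psmb9: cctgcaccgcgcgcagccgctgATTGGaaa
Psmb10: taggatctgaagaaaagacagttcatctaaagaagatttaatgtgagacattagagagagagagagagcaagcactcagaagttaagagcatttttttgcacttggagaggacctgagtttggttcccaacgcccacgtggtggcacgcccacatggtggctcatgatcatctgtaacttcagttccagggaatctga
Psmg1: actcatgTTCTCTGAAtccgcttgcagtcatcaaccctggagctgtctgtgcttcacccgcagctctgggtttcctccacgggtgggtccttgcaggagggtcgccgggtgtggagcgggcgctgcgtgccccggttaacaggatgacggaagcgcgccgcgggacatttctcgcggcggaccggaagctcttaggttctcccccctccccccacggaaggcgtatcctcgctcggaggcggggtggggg

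Of the 50 members, 48 passed the filter of at least 1 TPM in at least 3 libraries, and each population was compared with the others by limma on log2(TPM + 1) over all 12888 genes that passed, two-sided. Calls were made at 0.05 after Benjamini-Hochberg adjustment over those genes. Goblet-enriched against Lgr5-enriched, 0 members were higher and 18 lower, where 10.7% of all genes tested were higher and 23.6% lower. Enterocyte-enriched against Lgr5-enriched, 0 were higher and 25 lower, where 12% of all genes were higher and 37.6% lower. Goblet-enriched against enterocyte-enriched, 2 were higher and 4 lower, where 28.2% of all genes were higher and 15.9% lower. The median log2 fold change of the members was -0.40, -0.45 and 0.07 in these 3 comparisons, beside -0.26, -0.35 and 0.20 for all genes tested. Changes of members are therefore read against a typical gene that is itself lower outside the Lgr5-enriched population. Scaled by the median of ratios, which brings the median gene to -0.05, 0.03 and 0.04, the members' medians were -0.17, -0.03 and -0.11 and the counts were 0 higher and 6 lower, 2 higher and 4 lower, and 0 higher and 11 lower. The split of all genes in the goblet against Lgr5 comparison became 14.4% higher and 12% lower under this scaling, in enterocyte against Lgr5 23.5% and 19.6%, and in goblet against enterocyte 19.9% and 21.3%. The first 2 comparisons share the Lgr5-enriched libraries, and the others share theirs in the same way.

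**Figure D1:**
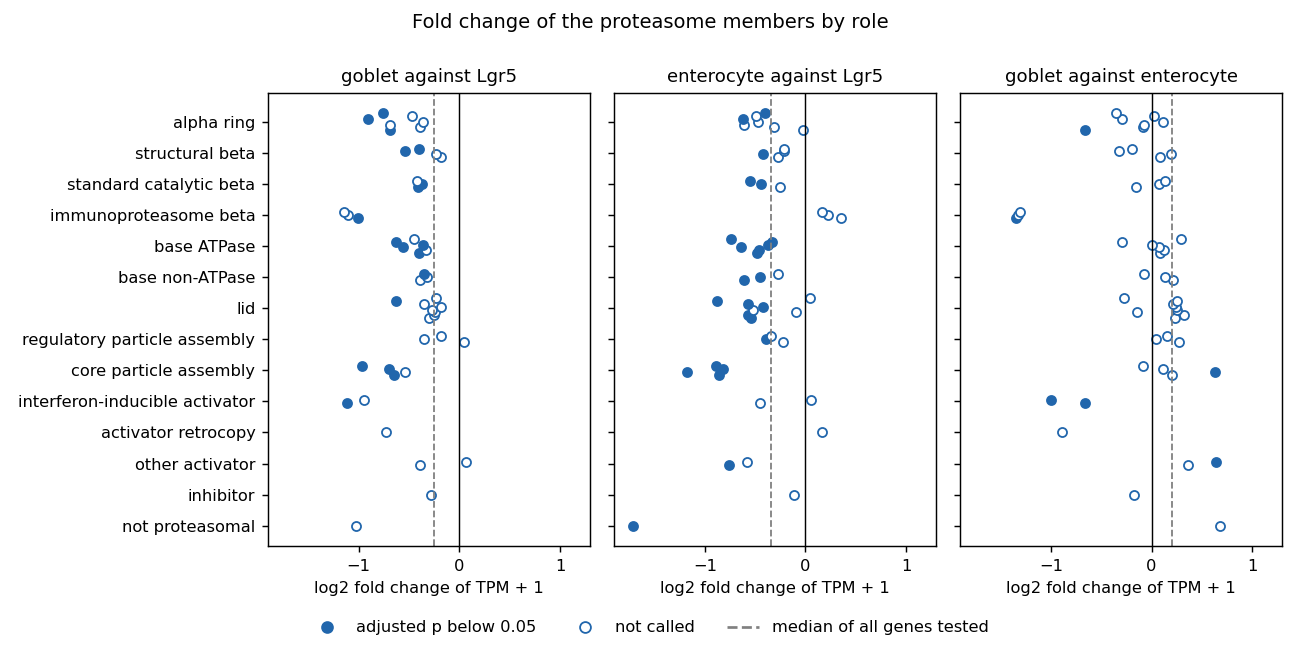
Each point is 1 of the 48 proteasome members that passed the filter, placed by its log2 fold change of TPM + 1 (horizontal axis) and its role (rows) in each of the 3 comparisons; filled points were called at an adjusted p below 0.05, and the dashed line is the median of all genes tested. Immunoproteasome beta subunits lie near -1.1 in goblet against Lgr5 and near -1.3 in goblet against enterocyte, and the core assembly row lies left of the dashed line in both comparisons with Lgr5.

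Replicate number mattered for these genes. A block on it assumes a pairing that no label gives. By its sex-linked transcripts, enterocyte-enriched replicate 1 cannot come from the same mouse as the others of its number. In comparisons with enterocyte-enriched cells, number 1 is therefore not a pairing by mouse. Adjusted p with the block hold only if libraries of a number belong together. In a fit with the replicate number as a block, the lower calls rose from 18 to 36 in goblet against Lgr5 (in that fit 13.9% of all genes were higher and 35.4% lower), and went from 25 to 33 in enterocyte against Lgr5 with 1 higher (45.3% and 15.9%). Goblet against enterocyte went from 2 higher and 4 lower to 5 and 9 (36.3% and 20.6%). With median-of-ratios scaling and the block together the counts were 0 higher and 15 lower (all genes 19.7% and 20.3%), 8 and 7 (30.4% and 25.9%), and 2 and 16 (27.4% and 27.0%). Without the 3 libraries of replicate 1 they were 0 and 28 (12.1% and 32.4%), 0 and 23 (12.5% and 42.1%), and 2 and 6 (29.5% and 17.8%). Single libraries also weighed on the counts. The 18 lower calls in goblet against Lgr5 became 12 without Lgr5-enriched replicate 1 (22.1% of all genes lower), 10 when the third Lgr5-enriched library was left out (12.2%) and 9 when the second goblet-enriched one was (16.3%), beside 23.6% of all genes with all libraries in, so the share over all genes fell too. The 25 lower calls in enterocyte against Lgr5 became 12 without Lgr5-enriched replicate 1 (36.2% of all genes lower), 12 without enterocyte-enriched replicate 2 (32.2%) and 15 without enterocyte-enriched replicate 3 (33.7%), beside 37.6% with all libraries in. Without Lgr5-enriched replicate 1 the members' medians were -0.31 and -0.32 in these comparisons, beside -0.29 and -0.38 for all genes tested.

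Immunoproteasome subunits replace the catalytic beta subunits under interferon gamma. Psmb8 (LMP7, which takes the place of Psmb5) stood at 307, 51.1 and 118 TPM in Lgr5-enriched replicates 1, 2 and 3, at 130, 23.7 and 57.9 in goblet-enriched, and at 299, 62.0 and 159 in enterocyte-enriched. Within each population replicate 1 was highest and replicate 2 lowest, 6.01, 5.50 and 4.83 times apart, so the ranges of the populations overlap. At each replicate number the goblet-enriched library was the lowest of the 3, at 0.424, 0.464 and 0.491 of the Lgr5-enriched level. Without the block the log2 fold change of goblet against Lgr5 was -1.11 ± 0.80 (SE) with a limma adjusted p of 0.309, and with the replicate block the adjusted p was 0.000242. Against enterocyte-enriched cells the fold change was -1.33, with adjusted p of 0.207 and 9.48e-05 respectively. Enterocyte against Lgr5 was 0.22 (adjusted p 0.837, and 0.106 with the block).

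Psmb9 (LMP2, which takes the place of Psmb6) followed the same order. It measured 231, 51.4 and 120 TPM in Lgr5-enriched, 111, 23.3 and 49.0 in goblet-enriched, and 227, 63.8 and 139 in enterocyte-enriched replicates 1, 2 and 3. Goblet-enriched libraries stood at 0.480, 0.452 and 0.410 of the Lgr5-enriched level at the same number, while the unmatched ranges overlap. The fold change of goblet against Lgr5 was -1.15 ± 0.69 (adjusted p 0.223, and 0.000251 with the block), and against enterocyte -1.31 (adjusted p 0.150, and 0.000111 with the block). Enterocyte against Lgr5 was 0.17, with an adjusted p of 0.857 and of 0.225 with the block. Psmb9 overlaps Tap1 in the GENCODE annotation, and whether counting used the strand is not given in the sources used here.

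Psmb10 (MECL-1, which takes the place of Psmb7) spread less between replicates and was called without the block. Its levels were 273, 164 and 244 TPM in Lgr5-enriched, 129, 90.3 and 115 in goblet-enriched, and 335, 238 and 283 in enterocyte-enriched replicates. All 3 goblet-enriched libraries lay below the other 6. The log2 fold change was -1.002 ± 0.22 against Lgr5 (adjusted p 0.00821) and -1.35 ± 0.22 against enterocyte (adjusted p 0.00132), and both calls held in all alternatives, at adjusted p of 0.000223 to 0.0442 and 6.34e-05 to 0.033. Enterocyte against Lgr5 was 0.35 (adjusted p 0.215), and was called higher with the block (adjusted p 0.0143) and under median-of-ratios scaling (0.76, adjusted p 0.0324).

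**Figure D2:**
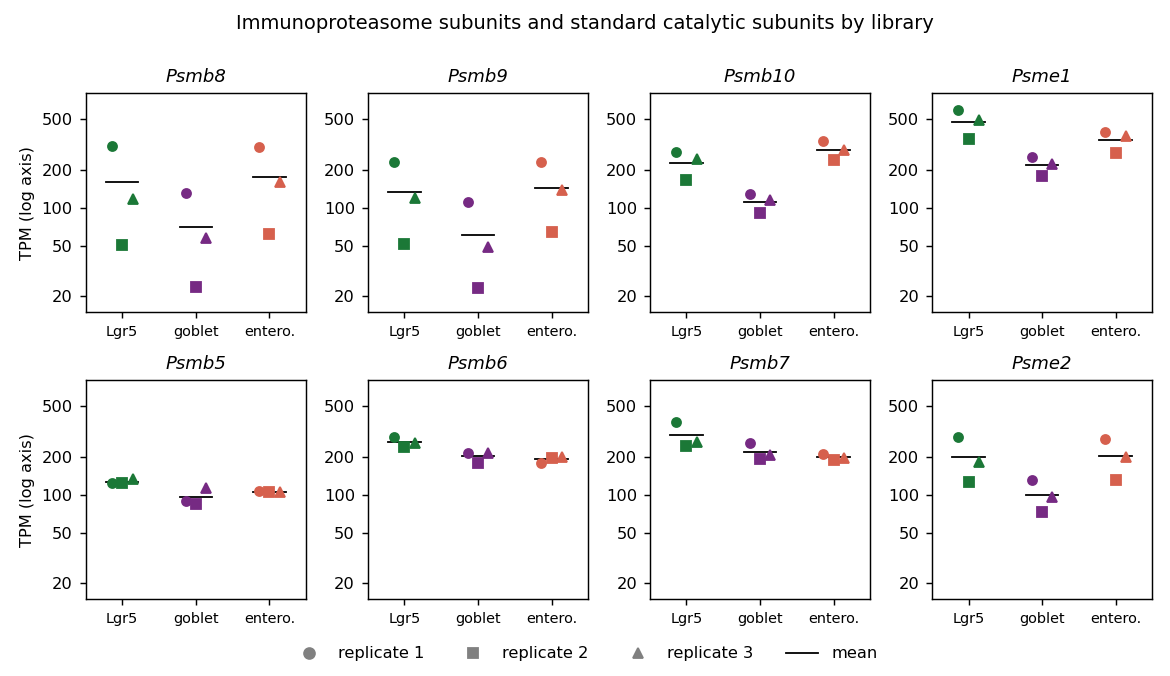
TPM of the 3 immunoproteasome beta subunits, their activators Psme1 and Psme2 and the 3 standard catalytic subunits in each of the 9 libraries (vertical axis logarithmic, the same in all panels); the symbol gives the replicate and the bar the mean of 3 libraries. Psmb8 runs from 23.7 to 307 TPM with replicate 1 highest and replicate 2 lowest in all 3 populations, whereas Psmb5 stays between 85.0 and 133.

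Standard catalytic subunits did not show that spread. Psmb5, the chymotrypsin-like subunit, measured 124, 123 and 133 TPM in Lgr5-enriched, 89.0, 85.0 and 113 in goblet-enriched, and 107, 104 and 106 in enterocyte-enriched replicates. The Lgr5-enriched libraries were above the other 6, and goblet against Lgr5 was called at -0.41 ± 0.13 (adjusted p 0.0328), which is -0.19 and not called under median-of-ratios scaling (adjusted p 0.343). Psmb6, the caspase-like subunit, averaged 260 ± 25.3 (SD, n = 3), 201 ± 18.9 and 191 ± 10.6 TPM in Lgr5-, goblet- and enterocyte-enriched cells. It was called lower in both comparisons with Lgr5 (-0.37, adjusted p 0.0428, and -0.44, adjusted p 0.0146), and neither call held under median-of-ratios scaling (adjusted p 0.473 and 0.873). Psmb7, the trypsin-like subunit, averaged 294 ± 72.5, 217 ± 33.3 and 197 ± 11.3 TPM and was called lower in enterocyte-enriched cells (-0.55, adjusted p 0.0302, but -0.14 and 0.624 under median-of-ratios scaling), and with the block also in goblet-enriched cells (-0.42, adjusted p 0.101 and 0.0172). The Psmb5 call was lost without any 1 of the Lgr5-enriched libraries, goblet-enriched replicate 1 or 2, or enterocyte-enriched replicate 2 or 3 (adjusted p 0.0504 to 0.116). The Psmb6 call in goblet was lost without any 1 Lgr5-enriched library, goblet-enriched replicate 2 or 3, or enterocyte-enriched replicate 2 or 3 (0.0509 to 0.148), and the Psmb7 call without Lgr5-enriched replicate 1 or enterocyte-enriched replicate 2 or 3 (0.0713 to 0.0836).

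Because TPM is per length, each inducible subunit can be set against the standard subunit whose place it takes. Psmb10 made up 33.6%, 31.9% and 36.1% of the sum of Psmb10 and Psmb7 transcripts in goblet-enriched replicates 1 to 3, 42.0%, 40.3% and 48.3% in Lgr5-enriched and 61.7%, 56.1% and 59.2% in enterocyte-enriched. The 3 populations do not overlap in this share. Psmb8 made up 71.2%, 29.4% and 47.1% of Psmb8 and Psmb5 in Lgr5-enriched, 59.4%, 21.8% and 33.9% in goblet-enriched and 73.6%, 37.3% and 60.1% in enterocyte-enriched replicates. For Psmb9 and Psmb6 the shares were 44.5%, 17.8% and 31.9%, then 34.4%, 11.5% and 18.8%, then 56.0%, 24.8% and 41.1%. For both of these pairs the populations overlap, and the order goblet below Lgr5 below enterocyte holds at each replicate number. The mean log2 ratio of Psmb10 to Psmb7 was -0.38 ± 0.25 (SD, n = 3), -0.97 ± 0.14 and 0.53 ± 0.16 in the same order of populations, Lgr5, goblet and enterocyte. No test was run on these ratios.

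Psme1 and Psme2 encode the alpha and beta chains of PA28, an interferon-inducible cap that opens the core without ATP. Psme1 was the most abundant of the 5 genes at 591, 346 and 491 TPM in Lgr5-enriched, 251, 177 and 221 in goblet-enriched and 396, 269 and 368 in enterocyte-enriched replicates. Goblet-enriched libraries were the lowest 3 of the 9. Psme1 fell in goblet against Lgr5 (-1.12 ± 0.23, adjusted p 0.00616), a call that held in all alternatives (adjusted p at most 0.0302). In goblet against enterocyte it was -0.66 (adjusted p 0.0415, and 0.000847 with the block), and that call was lost without goblet-enriched replicate 2, goblet-enriched replicate 3, enterocyte-enriched replicate 1, enterocyte-enriched replicate 3 or Lgr5-enriched replicate 3 (adjusted p 0.0601 to 0.135). Enterocyte against Lgr5 was -0.45 (adjusted p 0.131, and 0.00434 with the block), so Psme1 took the opposite sign to Psmb10 there.

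Psme2 measured 283, 126 and 183 TPM in Lgr5-enriched, 130, 72.3 and 95.1 in goblet-enriched and 276, 131 and 200 in enterocyte-enriched replicates. The goblet-enriched libraries lay below all enterocyte-enriched ones and overlap the lowest Lgr5-enriched one, and at each number goblet was lowest. The fold change was -0.95 ± 0.35 against Lgr5 (adjusted p 0.0643, and 0.000307 with the block) and -1.0 ± 0.35 against enterocyte (adjusted p 0.0448, and 0.000172 with the block). Leaving out goblet-enriched replicate 2 or 3, enterocyte-enriched replicate 1 or 3, or Lgr5-enriched replicate 3 ended the second call (adjusted p 0.0641 to 0.148). Its value is uncertain, since Psme2b, a near copy on chromosome 11, shares 789 of 794 aligned bases with it (99.4%) and reads may have been split between them. Psme2b read 264, 114 and 158 TPM, 123, 77.5 and 108, and 256, 134 and 195 in the same order, and was lower in goblet with the block (-0.73 against Lgr5, adjusted p 0.118 and 0.00263; -0.89 against enterocyte, adjusted p 0.0537 and 0.000787).

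As a group, 2 of the 5 immunoproteasome genes (Psmb10 and Psme1) were called lower in goblet against Lgr5, 0 in enterocyte against Lgr5 and 3 (with Psme2) in goblet against enterocyte. Of all genes tested, 23.6%, 37.6% and 15.9% were lower. With the block the counts of the 5 were 5 lower (35.4% of all genes), 1 higher with 1 lower (15.9% and 45.3%), and 5 lower (20.6%). With median-of-ratios scaling alone they were 2 lower, 1 higher and 3 lower, and with that scaling and the block 5 lower, 4 higher and 5 lower. All 5 were lowest in the goblet-enriched library at each of the 3 numbers, which 18.7% of all genes tested were, and under median-of-ratios scaling too, where 17.7% were. The 5 also had replicate 1 highest and replicate 2 lowest in all 3 populations, an order that 3.4% of all genes tested had. It was not theirs alone: 10 of the 31 standard subunits (32.3%), 8 of 13 MHC class I genes (61.5%) and 10 of 30 interferon genes (33.3%) had it too. The summed TPM of Psmb8, Psmb9 and Psmb10 was 811, 267 and 481 in Lgr5-enriched, 370, 137 and 222 in goblet-enriched and 862, 364 and 581 in enterocyte-enriched replicates. Without the 3 libraries of replicate 1, 3 of the 5 were lower in goblet against Lgr5 (32.4% of all genes) and 2 against enterocyte (17.8%).

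Leukocytes express the immunoproteasome constitutively, so their markers are given beside these values. The summed level of 14 leukocyte markers (Cd4 at 0 in all 9 libraries) was 3.07 to 16.4 TPM in Lgr5-enriched, 3.31 to 16.4 in goblet-enriched and 256, 147 and 16.0 in enterocyte-enriched replicates 1, 2 and 3. Most of the enterocyte sum was Lyz2, at 232 and 133 TPM in replicates 1 and 2, while Ptprc (Cd45) was at most 1.2 TPM and Cd3e at most 0.287 in any library. Lyz2 and Tyrobp, another of the 14, were both called higher in enterocyte against Lgr5 by limma. Both calls were lost without Lgr5-enriched replicate 1 (adjusted p 0.123 and 0.0718) or enterocyte-enriched replicate 1 (0.130 and 0.108), among others. Psmb8 was 307 TPM in Lgr5-enriched replicate 1, where the leukocyte sum was lowest (3.07 TPM), and 299 TPM in enterocyte-enriched replicate 1, where it was highest (256 TPM). The part of leukocytes in the immunoproteasome values was not tested in any population.

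Genes of the same antigen-presentation pathway were measured for comparison. Nlrc5, the transactivator of MHC class I genes, read 22.6, 1.63 and 7.64 TPM in Lgr5-enriched, 10.3, 0.573 and 4.01 in goblet-enriched and 16.9, 1.79 and 6.15 in enterocyte-enriched replicates. It had the same replicate order as Psmb8, 13.9, 17.9 and 9.40 times apart, and was lower in goblet against Lgr5 with the block alone (-0.87, adjusted p 0.515 and 0.0032). Tap1, the transporter gene that shares its upstream sequence with Psmb9, read 127, 32.2 and 69.4 TPM, then 76.1, 18.3 and 40.7, then 124, 35.0 and 83.4, and at each number stood in goblet at 0.599, 0.569 and 0.587 of Lgr5. Its calls appeared with the block (-0.76 against Lgr5, adjusted p 0.386 and 0.000888; -0.87 against enterocyte, adjusted p 0.297 and 0.000327). Tap2, the other chain of the transporter, rose instead in enterocyte-enriched cells (1.02 against Lgr5, adjusted p 0.0121) and did not differ detectably between goblet and Lgr5 (0.03, adjusted p 0.952).

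The light and heavy chains of MHC class I were not called lower in goblet-enriched cells. B2m, the light chain, read 3472, 988 and 1241 TPM in Lgr5-enriched, 4108, 689 and 1021 in goblet-enriched and 2551, 1064 and 1479 in enterocyte-enriched replicates, and was not called with or without the block (goblet against Lgr5 -0.19, adjusted p 0.852 and 0.552). The heavy chains H2-K1 and H2-D1 were higher in goblet against Lgr5 with the block (0.63, adjusted p 0.235 and 0.00248; 0.65, adjusted p 0.229 and 0.0015), and are named after their values were seen. Of 13 MHC class I genes, 3 rose in goblet against Lgr5 and 0 fell (10.7% and 23.6% of all genes tested), namely H2-T23 (0.79, adjusted p 0.0121) and the chaperones Pdia3 (1.34, adjusted p 0.0115) and Calr (0.87, adjusted p 0.0289). The Calr call was lost without Lgr5-enriched replicate 2 or 3 or goblet-enriched replicate 1 or 3 (adjusted p 0.057 to 0.097). In enterocyte against Lgr5 2 rose (H2-T23 at 1.16, Tap2) and 2 fell (Canx, and the peptide-trimming enzyme Erap1 at -0.96; both declines were lost without Lgr5-enriched replicate 1 or enterocyte-enriched replicate 2, at adjusted p of 0.0546 to 0.0613), and in goblet against enterocyte 3 rose and 2 fell (all genes 28.2% and 15.9%).

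**Figure D3:**
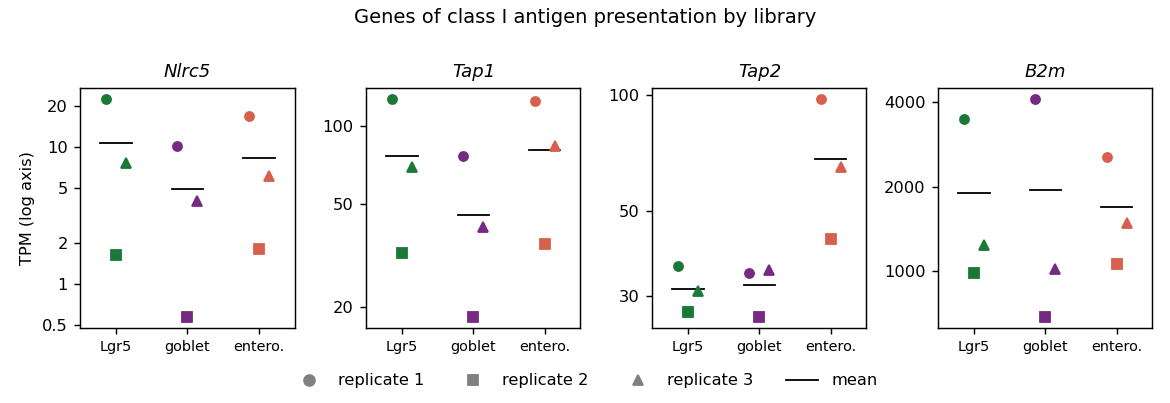
TPM of the class I transactivator Nlrc5, the peptide transporter genes Tap1 and Tap2, and the light chain B2m in each of the 9 libraries (logarithmic axes that differ between panels; symbols give the replicate, bars the mean of 3). Tap1 is lowest in the goblet-enriched library at each replicate number (18.3 to 76.1 TPM), although the populations overlap, while Tap2 is highest in enterocyte-enriched ones, 42.3 to 97.7.

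Among 30 genes of interferon signalling, 1 rose and 2 fell in goblet against Lgr5, 9 rose and 1 fell in enterocyte against Lgr5, and 2 rose and 9 fell in goblet against enterocyte. The 9 that rose are 30.0% of the list, beside 12% of all genes tested, and the 9 that fell are 30.0%, beside 15.9%. In goblet against Lgr5 10.7% of all genes rose and 23.6% fell. Those that rose most in enterocyte against Lgr5 are antiviral genes, Ifit1 (3.26, adjusted p 0.00269), Isg15 (2.96, adjusted p 0.00889) and Oas2 (2.57, adjusted p 0.0255), whereas none of the 5 immunoproteasome genes was called in that comparison on the TPM scale without the block. The Oas2 call was lost without Lgr5-enriched replicate 2 or enterocyte-enriched replicate 1 or 3 (adjusted p 0.0633 to 0.0866). Irf8, an interferon-regulated transcription factor, fell in goblet against Lgr5 (-0.96, adjusted p 0.00199), as did the receptor gene Ifngr1 (-0.53, adjusted p 0.0453, though not without Lgr5-enriched replicate 2 or 3, goblet-enriched replicate 2 or 3 or enterocyte-enriched replicate 2, at 0.0641 to 0.144), and the antiviral gene Rsad2 rose (1.67, adjusted p 0.00775). Irf1, an interferon-induced factor known to act on Psmb9 and Tap1, read 250, 193 and 219, then 238, 128 and 159, then 243, 196 and 234 TPM, and its goblet against Lgr5 difference was small (-0.37, adjusted p 0.207, and 0.0479 with the block).

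The 31 standard subunits ranged from 29.4 TPM (Psma3 in 1 goblet-enriched library) to 436 TPM (Psmb1 in 1 Lgr5-enriched library). All 31 had a negative fold change in goblet against Lgr5, 13 of them called, with a median of -0.39. In enterocyte against Lgr5 30 of 31 were negative and 18 called, with a median of -0.45. Goblet against enterocyte gave 1 call (Psma1, lower) and a median of 0.08. Of all genes tested, 23.6%, 37.6% and 15.9% were called lower in these 3 comparisons, with medians of -0.26, -0.35 and 0.20. The Lgr5-enriched library was the highest at every number for 28 of the 31, where 37.2% of all genes tested had that order. With median-of-ratios scaling the medians were -0.17, -0.04 and -0.11, and the calls were 2 lower, 1 higher, and 6 lower. Of all genes tested under that scaling, 12% were lower, 23.5% higher and 21.3% lower in the same comparisons. With it 12 of the 31 had a positive fold change in enterocyte against Lgr5, so the direction there depended on the scaling. The Lgr5-enriched library was then the highest at every number for 6 of the 31 (19.4%, and 21.7% of all genes). Lgr5-enriched replicate 1 was the highest of the 9 libraries for 28 of the 31 in TPM. Without it 7 were called lower in goblet and 6 in enterocyte against Lgr5 (22.6% and 19.4% of the 31, where 22.1% and 36.2% of all genes were lower), with medians of -0.26 and -0.33, beside -0.29 and -0.38 for all genes. Replicates of standard subunits mostly lay close together: the highest library was a median of 1.31, 1.27 and 1.12 times the lowest in Lgr5-, goblet- and enterocyte-enriched cells, and at most 2.31, 2.11 and 1.27 times, the first 2 of these for Psma3.

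The core is built of alpha and beta rings. Its 14 standard subunits summed to 4311, 3144 and 3518 TPM in Lgr5-enriched, 2995, 2447 and 2663 in goblet-enriched and 2830, 2738 and 2999 in enterocyte-enriched replicates, so that in TPM the other 6 libraries were below the lowest Lgr5-enriched one. Under median-of-ratios scaling that order was lost: the sums were 3945, 2655 and 2923 in Lgr5-enriched, 3073, 2414 and 2699 in goblet-enriched and 3457, 3113 and 3280 in enterocyte-enriched replicates, and the enterocyte mean (3283 ± 172, SD, n = 3) was above the Lgr5 mean (3174 ± 681). In goblet against Lgr5 7 of the 14 were called lower, where 23.6% of all genes tested were. In enterocyte against Lgr5 5 of the 14 were, which is not above the 37.6% of all genes there. Among alpha subunits, which gate the entry to the core, Psma5 changed most in goblet against Lgr5 (-0.91 ± 0.23, adjusted p 0.0141). It read 174, 108 and 100 TPM in Lgr5-enriched, 67.4, 52.2 and 78.9 in goblet-enriched and 80.5, 72.6 and 88.3 in enterocyte-enriched replicates, with no overlap between Lgr5 and the others. It overlaps 1700010K24Rik on the opposite strand, and the call was lost without goblet-enriched replicate 2 (adjusted p 0.0511) and under median-of-ratios scaling (-0.69, adjusted p 0.0725).

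Psma7 fell in goblet against Lgr5 (-0.76 ± 0.14, adjusted p 0.00332) in all alternatives (adjusted p at most 0.0254), from 244, 188 and 210 TPM to 133, 115 and 129. In enterocyte against Lgr5 it was the alpha call with the smallest change (-0.40, adjusted p 0.0345), and was 0.01 under median-of-ratios scaling. That call was lost without Lgr5-enriched replicate 1 or 3 or enterocyte-enriched replicate 1 or 2 (adjusted p 0.08 to 0.1). Psma1 read 391, 241 and 273 TPM in Lgr5-enriched, 220, 159 and 174 in goblet-enriched and 315, 260 and 296 in enterocyte-enriched replicates. It was lower in goblet-enriched cells than in either other population, at -0.69 against Lgr5 (adjusted p 0.025) and -0.66 against enterocyte (adjusted p 0.0226, and 0.00173 with the block). Without Lgr5-enriched replicate 1 or 3, or goblet-enriched replicate 2 or 3, the first call was lost (adjusted p 0.0551 to 0.0843), as it was under median-of-ratios scaling (-0.47, adjusted p 0.164), and without goblet-enriched replicate 2 or 3, or enterocyte-enriched replicate 1 or 3, the second (adjusted p 0.0584 to 0.0795). Among structural beta subunits Psmb3 (-0.54, adjusted p 0.0164) and Psmb4 (-0.40, adjusted p 0.0266) fell in goblet against Lgr5, and Psmb2 (-0.42, adjusted p 0.033) in enterocyte against Lgr5. None of these 3 calls held under median-of-ratios scaling. Psmb3 was also lost without Lgr5-enriched replicate 3 (adjusted p 0.0667), Psmb4 without Lgr5-enriched replicate 1 or 3 or goblet-enriched replicate 1 or 2 (0.0573 to 0.0935), and Psmb2 without Lgr5-enriched replicate 1 or 3 or any 1 enterocyte-enriched library (0.0571 to 0.0961).

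The 19S particle recognises and unfolds the substrate. Its 17 subunits summed to 3406, 2643 and 2916 TPM in Lgr5-enriched, 2527, 2089 and 2260 in goblet-enriched and 2203, 2078 and 2221 in enterocyte-enriched replicates. Scaled by the median of ratios they were 3116, 2232 and 2422, then 2593, 2061 and 2289, then 2692, 2362 and 2429, and the 3 populations overlapped. In goblet against Lgr5 6 of 17 were called lower, and in enterocyte against Lgr5 13 of 17, with medians of -0.35 and -0.48. Of all genes tested, 23.6% and 37.6% were lower in these comparisons. The ring of 6 ATPases (Psmc1 to Psmc6), which threads the substrate into the core, was called lower as a whole in enterocyte against Lgr5, from Psmc6 at -0.74 (adjusted p 0.0179) to Psmc5 at -0.34 (adjusted p 0.0371). Under median-of-ratios scaling Psmc5 was 0.08 and Psmc4 0.04, and 0 of the 6 were called there. In goblet against Lgr5 4 of the 6 were called, from Psmc5 at -0.63 (adjusted p 0.00371) to Psmc4 at -0.36 (adjusted p 0.0492). Of these 4, Psmc5 alone was called under median-of-ratios scaling (-0.41, adjusted p 0.0437), and Psmc1 (-0.17, adjusted p 0.457), Psmc3 (-0.34, adjusted p 0.0782) and Psmc4 (-0.14, adjusted p 0.523) were not. In enterocyte the Psmc6 call was lost without Lgr5-enriched replicate 1 or enterocyte-enriched replicate 1 (adjusted p 0.0537 and 0.0549), and the Psmc5 call without Lgr5-enriched replicate 1 or 3, goblet-enriched replicate 2 or any 1 enterocyte-enriched library (0.0537 to 0.118). The Psmc4 call in goblet was lost without any 1 of 8 libraries, all but Lgr5-enriched replicate 2 (0.0548 to 0.157).

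Psmc3 combined a called change in both comparisons with tight replicates. It read 310, 248 and 281 TPM in Lgr5-enriched, 188, 184 and 192 in goblet-enriched and 169, 180 and 187 in enterocyte-enriched replicates. The Lgr5-enriched libraries lay above all others, at -0.56 ± 0.11 for goblet (adjusted p 0.00583) and -0.64 ± 0.11 for enterocyte (adjusted p 0.0018). Under median-of-ratios scaling neither call held (adjusted p 0.0782 and 0.175). Psmc3 overlaps Slc39a13 on the opposite strand. Of the 3 other base subunits, which hold the ATPase ring and the ubiquitin receptors, Psmd4 (a ubiquitin receptor) fell in goblet (-0.35, adjusted p 0.0308) and Psmd1 and Psmd2 in enterocyte (-0.61, adjusted p 0.0243, and -0.45, adjusted p 0.0177). The Psmd4 call was lost without Lgr5-enriched replicate 2 or 3, goblet-enriched replicate 1 or 2 or enterocyte-enriched replicate 2 (adjusted p 0.0501 to 0.0901). The Psmd1 call was lost without Lgr5-enriched replicate 1 or enterocyte-enriched replicate 2 or 3 (0.0596 to 0.0775), and the Psmd2 call without Lgr5-enriched replicate 1 or 3 or enterocyte-enriched replicate 2 (0.0526 to 0.069). None of the 3 was called under median-of-ratios scaling.

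The lid removes the ubiquitin chain before degradation. Its largest change was in Psmd7, the partner of the deubiquitinase Psmd14, at 229, 165 and 192 TPM in Lgr5-enriched, 149, 110 and 117 in goblet-enriched and 106, 101 and 107 in enterocyte-enriched replicates. No goblet- or enterocyte-enriched library reached the lowest Lgr5-enriched one. Psmd7 was the 1 lid gene of 8 called in goblet against Lgr5 (-0.63 ± 0.16, adjusted p 0.0136), where 23.6% of all genes were lower. That call was lost without goblet-enriched replicate 2 (adjusted p 0.0525). It was 1 of 5 called in enterocyte against Lgr5 (-0.88 ± 0.16, adjusted p 0.00165), where 37.6% of all genes were lower and Psmd3 changed least (-0.43, adjusted p 0.0107). With median-of-ratios scaling the Psmd7 changes were -0.41 and -0.47 (adjusted p 0.125 and 0.0585), and Psmd3 was -0.01. Psmd8 was the 1 standard subunit without a negative sign there: at 184, 209 and 197 TPM in enterocyte-enriched and 217, 183 and 173 in Lgr5-enriched replicates it was 0.04 (adjusted p 0.782), and scaled by the median of ratios it was higher (0.46, adjusted p 0.025). It is named here after its values were seen.

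Assembly of the core needs the chaperones Psmg1 to Psmg4, which build the alpha ring and leave or are degraded once the core is complete. They were lower outside the Lgr5-enriched population, and the Lgr5-enriched library was the highest at each number for all 4, in TPM and under median-of-ratios scaling. Of all genes tested, 37.2% had that order in TPM and 21.7% under that scaling. Psmg1 read 63.0, 60.1 and 60.4 TPM in Lgr5-enriched, 37.2, 40.6 and 38.1 in goblet-enriched and 30.8, 33.4 and 36.1 in enterocyte-enriched replicates. Its Lgr5-enriched level was above all others by more than the spread of any population, at -0.65 ± 0.11 for goblet (adjusted p 0.00263) and -0.85 ± 0.11 for enterocyte (adjusted p 0.000435). Both calls held in all alternatives, at adjusted p of at most 0.0177 and 0.0274.

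Psmg2, the partner of Psmg1, read 52.1, 46.9 and 63.7 TPM in Lgr5-enriched, 34.6, 39.9 and 35.6 in goblet-enriched and 17.1, 24.2 and 30.3 in enterocyte-enriched replicates, and no 2 populations overlap in TPM. It fell in enterocyte against Lgr5 by 1.18 ± 0.20 on the log2 scale (adjusted p 0.00157), in all alternatives (adjusted p at most 0.0454). Goblet against Lgr5 was -0.54 (adjusted p 0.0677, and 0.0306 with the block). Goblet against enterocyte was called at 0.63 (adjusted p 0.0319), and was lost without any 1 of the goblet-enriched libraries or without enterocyte-enriched replicate 1 or 2 (adjusted p 0.0513 to 0.0945), under median-of-ratios scaling (0.45, adjusted p 0.0701), with voom (0.083), with quantile normalization (0.063) and from the 6 libraries compared (0.0502).

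Psmg3 and its partner Psmg4 showed the same direction. Psmg3 read 50.003, 37.9 and 50.1 TPM, then 29.3, 24.4 and 29.5, then 25.5, 25.4 and 25.3, at -0.70 ± 0.15 for goblet (adjusted p 0.00663) and -0.82 ± 0.15 for enterocyte (adjusted p 0.00182). Psmg4 read 42.7, 36.5 and 42.3 TPM, then 22.2, 18.5 and 19.9, then 19.9, 17.8 and 27.4, at -0.97 ± 0.17 (adjusted p 0.00324) and -0.89 ± 0.17 (adjusted p 0.00274). For both genes the Lgr5-enriched libraries lay above the other 6. Under median-of-ratios scaling the 4 chaperones had a median of -0.46 in goblet and -0.47 in enterocyte against Lgr5, where 2 (Psmg1 and Psmg4) and 3 (with Psmg2) were called, and Psmg3 was just outside (adjusted p 0.0536 and 0.0623). Of all genes tested, 12% and 19.6% were lower in these comparisons under that scaling. Together the 4 summed to 208, 181 and 216 TPM in Lgr5-enriched, 123, 123 and 123 in goblet-enriched and 93.4, 101 and 119 in enterocyte-enriched replicates. The fifth core chaperone gene, Pomp, which matures the beta ring, was outside the name rule and read 313, 200 and 220 TPM, 231, 166 and 172, and 211, 159 and 197. Unlike Psmg1 to Psmg4, its Lgr5-enriched libraries overlapped those of the other populations.

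**Figure D4:**
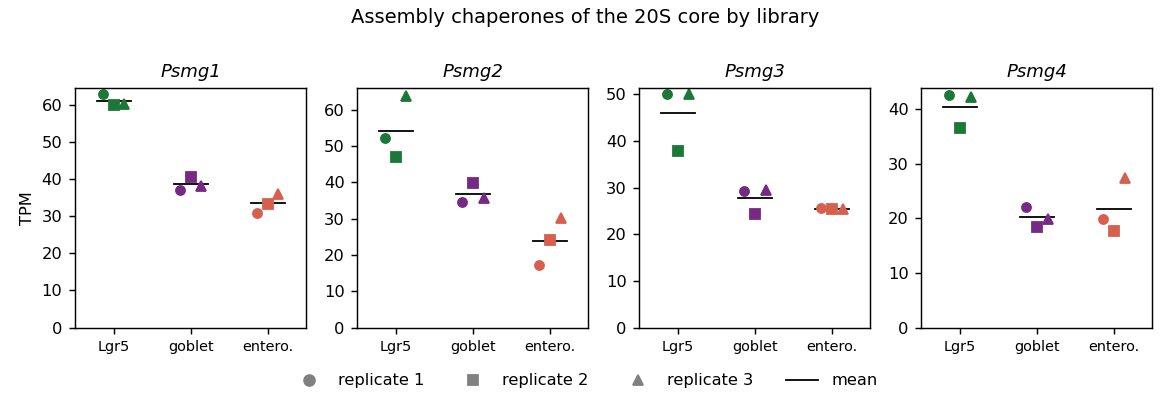
TPM of the 4 core assembly chaperones in each of the 9 libraries (linear axes from 0 that differ between panels; symbols give the replicate, bars the mean of 3). In each panel the 3 Lgr5-enriched libraries, 36.5 to 63.7 TPM across the 4 genes, stand above the 6 goblet- and enterocyte-enriched ones.

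The chaperones of the 19S base, Psmd5, Psmd9 and Psmd10, differed less. Psmd5 averaged 65.6 ± 6.33 (SD, n = 3), 51.1 ± 3.54 and 49.7 ± 3.96 TPM in Lgr5-, goblet- and enterocyte-enriched cells, and fell in enterocyte (-0.39, adjusted p 0.0253), though it was 0.01 under median-of-ratios scaling. The call was also lost without Lgr5-enriched replicate 1 or 2 or enterocyte-enriched replicate 2 or 3 (adjusted p 0.0575 to 0.0939). In goblet Psmd5 was called with the block alone (-0.35, adjusted p 0.0529 and 0.0182). Psmd9 averaged 21.8 ± 2.90, 18.9 ± 0.47 and 17.0 ± 2.24 TPM, and was lower in enterocyte with the block (-0.34, adjusted p 0.094 and 0.0408). Psmd10 averaged 41.6 ± 9.50, 42.6 ± 6.38 and 35.0 ± 1.69 TPM and was not called in any comparison.

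Other activators cap the core without ubiquitin. Psme3 (PA28 gamma), a nuclear cap, read 201, 136 and 146 TPM in Lgr5-enriched, 140, 112 and 112 in goblet-enriched and 97.2, 89.5 and 93.3 in enterocyte-enriched replicates. Enterocyte-enriched libraries were the lowest 3 of the 9, at -0.76 ± 0.16 against Lgr5 (adjusted p 0.0045), where Psme1 and Psme2 were not called without the block. That call was lost under median-of-ratios scaling (-0.35, adjusted p 0.167) and made there with the block (adjusted p 0.0244). In goblet Psme3 was -0.40 against Lgr5 (adjusted p 0.0896, and 0.0191 with the block) and 0.37 against enterocyte (adjusted p 0.0972, and 0.0218 with the block).

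Psme4 (PA200) read 108, 80.02 and 81.8 TPM in Lgr5-enriched, 134, 75.3 and 80.8 in goblet-enriched and 65.7, 56.0 and 57.2 in enterocyte-enriched replicates. It was the 1 member besides Psmg2 called higher in goblet against enterocyte (0.64 ± 0.22, adjusted p 0.0399), and did not differ detectably between goblet and Lgr5 (0.07, adjusted p 0.835). Enterocyte against Lgr5 was -0.58 (adjusted p 0.0538, and 0.00584 with the block). The goblet against enterocyte call was lost without goblet-enriched replicate 1, any 1 enterocyte-enriched library, or Lgr5-enriched replicate 2 or 3 (adjusted p 0.0504 to 0.102), and under median-of-ratios scaling (adjusted p 0.167). Psmf1 (PI31), a regulator that inhibits the core in vitro, varied little, at 20.0 to 27.0 TPM over all 9 libraries, and was called in no comparison on the TPM scale (goblet against Lgr5 -0.28, adjusted p 0.122). Median-of-ratios scaling gave 1 call, lower in goblet against enterocyte (-0.35, adjusted p 0.0494).

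Psma8, the alpha subunit of testis proteasomes, and Psmb11, the catalytic subunit of thymic epithelium, are listed at 0 in all 9 libraries. Psmc3ip, the recombination factor, read 11.4, 5.09 and 13.9 TPM in Lgr5-enriched, 3.07, 3.12 and 6.97 in goblet-enriched and 1.07, 2.68 and 3.23 in enterocyte-enriched replicates, from 5 to 116 reads per library. It fell in enterocyte against Lgr5 (-1.71 ± 0.42, adjusted p 0.00867) and in goblet with the block (-1.03, adjusted p 0.0877 and 0.0301).

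Genes that work beside the proteasome were counted from lists, to be read against the shares of all genes tested: 10.7% higher and 23.6% lower in goblet against Lgr5, 12% and 37.6% in enterocyte against Lgr5, and 28.2% and 15.9% in goblet against enterocyte. Of 17 proteasome partners (shuttle factors, deubiquitinases and other associated proteins), 1 rose and 3 fell in goblet against Lgr5, 0 rose and 10 fell in enterocyte against Lgr5, and 6 rose and 0 fell in goblet against enterocyte. The 10 are 58.8% of the list, and 1 of them was called under median-of-ratios scaling. The enterocyte declines were led by the shuttle factor Ubqln2 (-1.18, adjusted p 0.000333), the deubiquitinase Uchl5 (-1.15, adjusted p 0.00584) and the shuttle factor Rad23b (-1.07, adjusted p 0.00523), and these exceed the change of every standard subunit called there. Zfand2a, a stress-induced partner, rose in goblet against Lgr5 (1.44, adjusted p 0.00755) and against enterocyte (1.83, adjusted p 0.00161).

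Another machinery extracts misfolded proteins from the endoplasmic reticulum for the proteasome. Of 21 genes of Vcp and ER-associated degradation, 11 rose and 0 fell in goblet against Lgr5, and 13 rose and 0 fell in goblet against enterocyte, while 3 rose and 2 fell in enterocyte against Lgr5. The risers are 52.4% and 61.9% of the list in the first 2 of these, beside 10.7% and 28.2% of all genes tested. With median-of-ratios scaling 17 rose in goblet against Lgr5 (14.4% of all genes), 9 against enterocyte (19.9%), and none fell in either. Herpud1, which anchors the retrotranslocation complex, read 297, 246 and 228 TPM in Lgr5-enriched, 1246, 999 and 809 in goblet-enriched and 264, 279 and 298 in enterocyte-enriched replicates (goblet against Lgr5 1.97 ± 0.17, adjusted p 7.29e-05). Edem3, which trims the sugars of misfolded glycoproteins, rose by 1.64 (adjusted p 0.00417) and Vimp by 1.47 (adjusted p 0.000141). Vcp, the ATPase that pulls the substrate out, fell in enterocyte against Lgr5 (-0.51, adjusted p 0.00376).

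Of 9 genes of the NRF1 pathway, 1 rose and 1 fell in goblet against Lgr5, 1 rose and 2 fell in enterocyte against Lgr5, and 1 rose and 2 fell in goblet against enterocyte. The Keap1 rise and the Nfe2l2 fall in goblet against enterocyte were each lost without 1 of several libraries (limma adjusted p 0.0574 to 0.157 and 0.0557 to 0.0669). So was the fall of Mafg in enterocyte against Lgr5 (0.0502 to 0.118). Nfe2l1 itself read 114, 135 and 116 TPM in Lgr5-enriched, 112, 122 and 108 in goblet-enriched and 141, 166 and 146 in enterocyte-enriched replicates, and the enterocyte-enriched libraries were the highest 3. It was lower in goblet against enterocyte (-0.40, adjusted p 0.0224), a call lost without goblet-enriched replicate 3 or enterocyte-enriched replicate 2 (0.0703 and 0.0875), and higher in enterocyte against Lgr5 with the block (0.31, adjusted p 0.0558 and 0.0123). The protease that activates it, Ddi2, fell in enterocyte against Lgr5 (-0.65, adjusted p 0.0136, but 0.0511 without enterocyte-enriched replicate 2), and the enzyme Ngly1, which deglycosylates it, rose there (0.65, adjusted p 0.00615). Its relative Nfe2l2 fell in goblet against Lgr5 (-0.90, adjusted p 0.00714).

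Among 11 ubiquitin genes and activating enzymes, 1 rose and 1 fell in goblet against Lgr5, 1 rose and 2 fell in enterocyte against Lgr5, and 3 rose and 2 fell in goblet against enterocyte. Uba7, which activates the ubiquitin-like Isg15, rose in enterocyte against Lgr5 (1.28, adjusted p 0.00377), and Uba6 (-1.07, adjusted p 0.0206, but not called without Lgr5-enriched replicate 1 or enterocyte-enriched replicate 3, at 0.0676 and 0.0674) and the SUMO enzyme Uba2 (-1.03, adjusted p 0.000778) fell there. In goblet against Lgr5 the NEDD8 enzyme Uba3 fell (-0.76, adjusted p 0.0147). Of the declines named from these lists, those of Uchl5 (adjusted p 0.0561), Rad23b (0.0667), Vcp (0.521), Ddi2 (0.308), Uba6 (0.133), Canx (0.371), Erap1 (0.179), Ifngr1 (0.278) and Uba3 (0.0984) were not called under median-of-ratios scaling, and those of Ubqln2 (0.00103), Nfe2l2 (0.0142), Irf8 (0.0082) and Uba2 (0.0192) were.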

How the data were processed

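Messenger RNA of 9 libraries was measured, 3 for each of 3 sorted populations. The authors deposited 1 table of log2 values for 24421 symbols. The values show log2(TPM) at 1 TPM and above and TPM minus 1 below it, and each column sums to the same total after back-transformation. Cufflinks and mm10 are named per the submitters' processing notes. Not given in the sources used here were the aligner, the strand setting and which of 2 instruments ran each library. No columns were left unused (0). Whole reads were recovered for 18386 of 18396 genes above 0 (99.95%, tolerance 1e-06 reads).

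Fits used limma 3.58.1 in R 4.3.3 (trend, no covariate, pseudocount 1, 6 residual and 3.21 prior degrees of freedom), tested on simulated data. Per the series text each replicate of a population is a separate mouse, 3 mice in all. No label ties a number to a mouse. Enterocyte-enriched replicate 1 carries Y-linked transcripts that the other libraries of its number lack, so number 1 is not 1 mouse across the populations. Deviations of same-numbered libraries correlated at 0.194 to 0.601 in all 9 pairs. The main fit used no pairing, and the block, run beside it, assumes that libraries of a number belong together. Those correlations come from the same values that were tested, so they are no separate evidence of pairing. Library preparation is part of the spread between mice. Alternatives were other scalings, filters, weights and left-out libraries. The scaling with block and the removal of enterocyte-enriched replicates 1 and 2 together were added after seeing the data, and the Psme2b role too.

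Members and lists were chosen with earlier results of these data known. Named were all catalytic, immunoproteasome, activator, inhibitor, assembly and tissue-restricted members, the largest and smallest called changes of the other roles, and up to 3 called genes per list and comparison, with Nfe2l1, Nlrc5, Tap1, B2m and Irf1. Some genes of the lists are not reported here. Promoters are RefSeq (GRCm38.p6), gene overlaps GENCODE M21.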

Additional observations from a re-analysis of the deposited data

How the results depend on the processing

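Counts of called members (higher, lower) in goblet against Lgr5, enterocyte against Lgr5 and goblet against enterocyte were 0 and 18, 0 and 25, and 2 and 4. With the replicate block they were 0 and 36, 1 and 33, and 5 and 9; in every member and comparison the block kept the call or added one. With median-of-ratios scaling they were 0 and 6, 2 and 4, and 0 and 11, and with that scaling and the block 0 and 15, 8 and 7, and 2 and 16. Array weights gave 43 lower in the first and 10 lower in the third (43.9% and 19.6% of all genes lower). Leaving out the 3 libraries of replicate 1 gave 28 lower in the first (all genes 32.4%), and voom on recovered reads 11 lower in the second (30.8%) and 1 and 7 in the third (23.8% and 16.3%). The third was 1 and 2 without a filter (all genes 19% and 11.3%), 1 and 1 with quantile normalization (22.4% and 18.5%), 0 higher from the 6 libraries compared (25.2%) and 2 lower without a trend (15.7%). Without enterocyte-enriched replicates 1 and 2 together, which leaves 1 library there that is assumed to vary like the others, the second had 2 lower (all genes 13.6%) and the third 0 and 1 (7.68% and 6.45%). Leaving out 1 library or number gave 9 to 28 lower in the first, 12 to 28 lower in the second, and 0 to 3 higher and 1 to 6 lower in the third.

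Median-of-ratios scaling moved the summed TPM of the core from 3658 to 3174 in Lgr5-enriched and from 2856 to 3283 in enterocyte-enriched cells, so that their order turned, and of the 19S particle from 2988 to 2590 in Lgr5-enriched and from 2167 to 2494 in enterocyte-enriched cells. Under it, with or without the block, the log2 fold changes of enterocyte against Lgr5 turned positive for Psma7 (0.009), Psmc4 (0.042), Psmc5 (0.076) and Psmd5 (0.014), which had been called lower, and for Psma1 (0.385) and Psmd13 (0.316), which were called higher there with the block. Of the 31 standard subunits 12 were positive under it, against 1 in TPM. Scaling caused these shifts by its construction. Depth limited little here, except for Psmc3ip at 5 to 116 reads.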
